A study of Capra hircus with 4 samples.

Results

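Lymphatic endothelial cells of the goat ovary were examined as the nuclei in which at least 3 of the 6 genes PROX1, RELN, CCL21, FLT4, MMRN1 and PKHD1L1 had 1 or more UMIs (unique molecular identifiers, each standing for 1 captured RNA molecule), among nuclei with at least 500 UMIs. This gate held 2006 of the 48332 nuclei. Of the gate genes, PROX1 encodes the homeobox transcription factor that sets lymphatic identity and FLT4 the receptor for the growth factor VEGF-C. CCL21 encodes the chemokine that draws dendritic cells and T cells into lymphatics, RELN a secreted glycoprotein, MMRN1 a multimerin and PKHD1L1 a large membrane protein. The gate itself used these counts, so their levels are given as a description without a test.

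Lymphatic capillaries take up interstitial fluid, proteins and immune cells and pass them through collecting vessels with valves towards lymph nodes. Their endothelium arises mainly from veins under PROX1, with SOX18 and NR2F2 upstream of it, and keeps growing under VEGF-C and its receptor. In the ovary, lymphatics run in the stroma and around larger follicles, where they drain the fluid that leaks from the dense blood capillaries of the theca.

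The ovaries came from 2 Nubian goats, a breed with large litters, and 2 Du'an goats, a breed that mostly bears single kids. All 4 goats were about 3 years old. They had received a vaginal insert with 300 mg of progesterone for 17 days to synchronise estrus, so no group was free of that treatment. Each goat gave 1 droplet-based single-nucleus RNA library. Breed therefore rests on 2 goats each, and whatever else the goats of a breed shared cannot be told apart from it.

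Values of the 4 goats are given throughout in the order Du'an 1, Du'an 2, Nubian 1 and Nubian 2. The libraries held 9364, 10893, 16988 and 11087 nuclei and 40573246, 60566681, 71613892 and 52783453 UMIs, with a median of 1926.5, 3383, 2399.5 and 2011 UMIs per nucleus. The lymphatic gate held 385, 574, 852 and 195 nuclei with 1675475, 3290124, 5731450 and 1266382 UMIs. Its nuclei had a median of 1983, 3142, 4171 and 4047 UMIs, against 1923, 3407, 2336 and 1992.5 in all other nuclei, so that they were the deeper mainly in the Nubian libraries. Of 47909 distinct cell barcodes, 361 occurred in more than 1 library, and they included the barcodes of 20 lymphatic-gate nuclei, but no barcode was lymphatic in more than 1 library.

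The gate genes differed in how evenly the goats showed them. Summed over the lymphatic-gate nuclei of a goat and expressed as counts-per-million of all UMIs of that sum (CPM), FLT4 stood at 284, 308, 312 and 225 CPM and RELN at 1553, 1951, 2269 and 1542 CPM. PROX1 was measured at 805, 523, 1072 and 581 CPM and PKHD1L1 at 878, 901, 1014 and 549.6 CPM. The chemokine gene CCL21 was less even at 584, 1391, 505 and 1745 CPM, and MMRN1 stood at 802, 2760.4, 776 and 1544 CPM. Both were higher in Du'an 2 and Nubian 2 than in Du'an 1 and Nubian 1, so the breeds overlapped.

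To see each marker without its own part in the choice, nuclei were chosen by at least 3 of the other 5 markers and the omitted marker was then counted. MMRN1 was seen in 82.2% of 1505 such nuclei, RELN in 81.1% of 1635 and PKHD1L1 in 80.7% of 1553. PROX1 was seen in 68.9% of 1715 nuclei, FLT4 in 54.9% of 1903 and CCL21 in 47.7% of 1790. The same markers were also counted in nuclei gated as blood endothelium, which had a median of 3558 UMIs, and as granulosa cells (GCs), with a median of 4709. Nuclei of the lymphatic gate were left out of both, so none held more than 2 of the 6 markers, and their shares are given with no test. In those 2 classes FLT4 was found in 2.53% and 0.768%, RELN in 3.11% and 4.4%, and CCL21 in 3.92% and 3.66% of nuclei. MMRN1 was seen in 15.4% of blood endothelial-gate and 36.8% of granulosa-gate nuclei, PKHD1L1 in 8.67% and 12.8%, and PROX1 in 14.1% and 3.59%. The share with CCL21 varied between the goats, with 33.8, 60.8, 45.4 and 48.6% of the nuclei chosen by the other markers.

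The gate was checked against endothelial genes that it did not use, by the number of its markers that a nucleus held. Of the 2006 nuclei, 645 had exactly 3 markers, 402 had 4, 467 had 5 and 492 had all 6. PECAM1, the adhesion receptor of all endothelium, was seen in 25.0% of the nuclei with 3 markers and in 53.7, 64.9 and 85.6% of those with 4, 5 and 6. The nuclei just outside the gate, with 2 markers, held it in 6.40%, close to the 6.03% of nuclei with none. ERG, an endothelial transcription factor, rose likewise from 7.71% with 2 markers over 23.1% with 3 to 76.6% with 6. The 18 pan-endothelial genes together made up 429 CPM in nuclei with 2 markers, 819 CPM in those with 3 and 2822, 3321 and 4127 CPM in those with 4, 5 and 6. The endothelial signal therefore lay mostly in nuclei with 4 or more markers.

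Nuclei with exactly 3 markers, 32.2% of the gate, also carried a follicle signal. FSHR, the follicle-stimulating hormone receptor of GCs, was seen in 64.7% of them, against 43.8, 44.3 and 43.1% of those with 4, 5 and 6 markers and 83.0% of the nuclei with 2. Their 7 granulosa markers summed to 4120 CPM, against 4719 CPM in nuclei with 2 markers and 965 CPM in those with 6. Depth moved with this as well: the median was 6447 UMIs with 2 markers, 3845 with 3 and 1700.5, 3005 and 4805.5 with 4, 5 and 6. The commonest sets of exactly 3 markers were RELN, MMRN1 and PKHD1L1 with 150 nuclei, then PROX1, MMRN1 and PKHD1L1 with 107. In the latter set the median was 9643 UMIs and FSHR was present in 82.2% of nuclei. For these reasons the nuclei are called lymphatic-gate nuclei here. Most counts over the gene lists are also given for the 1361 nuclei with 4 or more markers, with the nuclei they are compared with unchanged. Nuclei with 4 or more markers numbered 246, 422, 575 and 118 in the 4 goats.

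In the mean over the goats, several genes outside the gate climbed in steps with the number of markers. The 4 genes given here were picked for their large changes in the comparisons of the gate described below. Their difference across the edge of the gate is therefore a description and no independent check of it. Mean levels over the 4 goats for TBX1, a T-box transcription factor required for lymphatic growth, were 4.23, 24.5, 200.1, 242 and 286 CPM with 2, 3, 4, 5 and 6 markers. KIRREL3, an adhesion molecule of the immunoglobulin superfamily, had a mean of 9.20, 68.1, 763, 1481 and 2551 CPM over the same steps. With 5 markers the goats had 187, 841, 4162.5 and 733 CPM of KIRREL3, so Nubian 1 raised that mean. In Du'an 1 it was lower with 5 markers than with 4 (302 CPM). LYVE1, the hyaluronan receptor of lymphatic capillaries, had a mean of 5.86, 28.3, 134, 207 and 455 CPM with 2, 3, 4, 5 and 6 markers. MECOM, a transcription factor abundant in the blood endothelium of these libraries, had a mean of 166, 213, 202, 21.3 and 48.9 CPM over the same steps, and so was lower only with 5 or 6 markers.

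**Figure D1:**
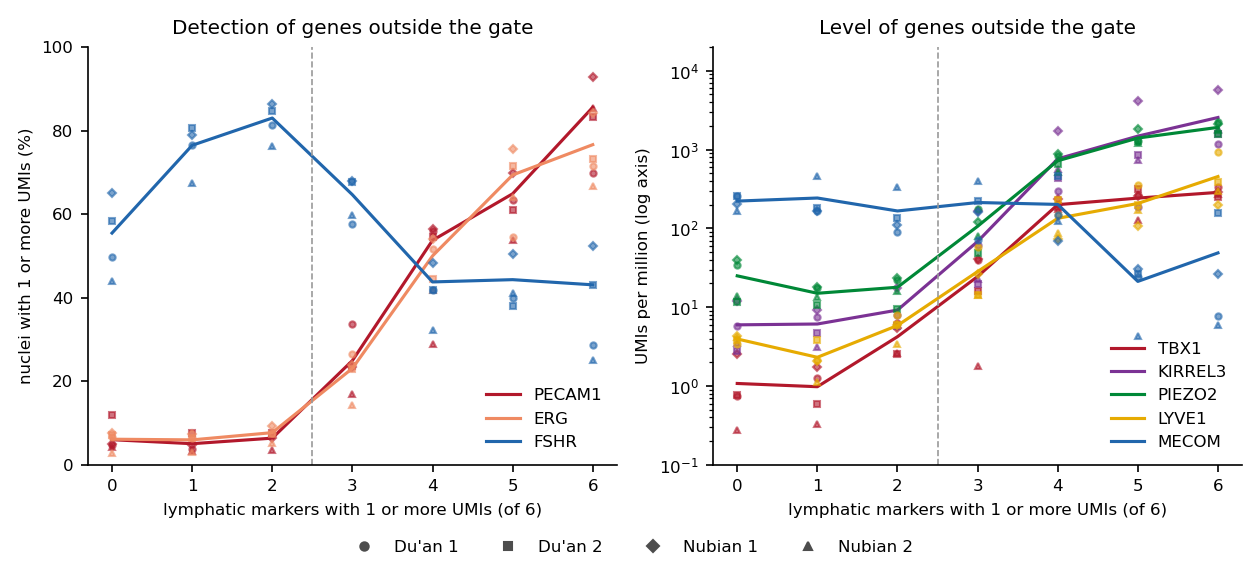
Genes outside the gate by the number of lymphatic markers with 1 or more UMIs in a nucleus, with the dashed line at the gate. Left, percent of nuclei with a UMI of PECAM1, ERG and FSHR, with the line over all nuclei and points for the 4 goats; right, CPM on a log axis (values of 0 are not drawn), with the line as the mean of the goats. PECAM1 climbed from 6.40% with 2 markers to 85.6% with 6, and nuclei with 3 markers lay between those outside the gate and those with 4. The genes on the right were picked for their large changes in comparisons of the same gate.

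Lymphatic-gate nuclei overlapped with the gates of other cell types. The blood endothelial gate (at least 3 of FLT1, VWF, EMCN, PLVAP, ADGRL4 and NOSTRIN) was also passed by 229 of the 2006 nuclei, and the granulosa gate by 631, which is 31.5%. The granulosa share was uneven, with 13.2, 28.2, 43.8 and 23.1% in the 4 goats. Smooth muscle, stromal, T or natural killer and macrophage gates were passed by 130, 100, 27 and 11 nuclei, and 847 nuclei passed any other gate. Since free RNA in droplets gives UMIs in nuclei that do not express a gene, FSHR was also counted after each nucleus was thinned to 1000 UMIs, which left out 215 lymphatic-gate nuclei as too shallow. It was then seen in 31.7% of lymphatic-gate nuclei and in 21.9% of those with 4 or more markers. T or natural killer-gate nuclei, which should lack FSHR, showed it in 23.3% and granulosa-gate nuclei in 73.6%. By goat, FSHR was seen in 23.9, 20.5, 22.7 and 18.6% of nuclei with 4 or more markers and in 15, 26.4, 22.6 and 10.9% of T or natural killer-gate nuclei. It was thus the higher in Du'an 1 and Nubian 2, the lower in Du'an 2 and nearly equal in Nubian 1. Before thinning, over all goats, FSHR was seen in 50.4% of lymphatic-gate nuclei, 43.7% of those with 4 or more markers, 42.9% of T or natural killer-gate and 93.5% of granulosa-gate nuclei. PECAM1 after thinning was seen in 30.1% of lymphatic-gate, 24.2% of blood endothelial-gate and 0.95% of granulosa-gate nuclei.

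The summed markers of other cell types in the lymphatic-gate nuclei were as follows. All 7 granulosa markers were above 0 and summed to 1792, 3150.3, 2499 and 2211 CPM, with FSHR the most abundant at a mean of 1009 CPM. The 6 stromal markers in the files summed to 1947, 2753, 1611 and 2814 CPM, of which TSHZ2 made up 2059 CPM on average. Smooth muscle markers summed to 617, 314, 634 and 827 CPM, led by SYNPO2 with 348 CPM. Immune lists were low: macrophage markers summed to 33.4, 243, 12.7 and 66.3 CPM, led by C1QA, and T or natural killer markers to 88.3, 178, 71.4 and 86.1 CPM, led by SKAP1. B cell markers, with 1 of 7 at 0, had a mean sum of 34.0 CPM led by BANK1, epithelial markers 36.3 CPM led by KRT8, pericyte markers 26.8 CPM led by ABCC9, and theca markers 86.1 CPM led by PTCH1. Macrophage and epithelial markers were thus highest in Du'an 2. What part these other cell types had in the results that follow was not tested, apart from the counts given without nuclei of other gates.

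Lymphatic-gate nuclei made up 4.11% of all nuclei in Du'an 1 (95% exact Clopper-Pearson interval 3.72 to 4.53), 5.27% in Du'an 2 (4.86 to 5.71), 5.02% in Nubian 1 (4.69 to 5.35) and 1.76% in Nubian 2 (1.52 to 2.02). These intervals cover counting error only. Nubian 2 stood apart below the other 3 goats, and the breeds overlapped. Without lymphatic-gate nuclei that also passed another gate the shares were 3.25, 3.00, 2.35 and 1.16%, so that both Nubian goats lay below both Du'an goats (difference -1.37 percentage points, exact two-sided permutation p = 0.333). The mean share over the whole gate in Nubian minus that in Du'an goats was -1.30 percentage points, which did not pass an exact two-sided permutation test (p = 0.667), and without Nubian 2 it was 0.325 points. With 2 goats against 2 the smallest p such a test can give is 0.333. With 4 or more markers the shares were 2.63, 3.87, 3.38 and 1.06%, and Nubian 2 was again the lowest.

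A share depends on how many follicle nuclei a library holds, so lymphatic-gate nuclei were also set against blood endothelial-gate nuclei of the same library. There were 1.40, 1.26, 2.35 and 1.49 lymphatic-gate nuclei per blood endothelial-gate nucleus. Nubian 1 held the most, and both Nubian goats lay above both Du'an goats. The log2 difference was 0.49 (exact two-sided permutation p = 0.333, the smallest the design allows). Without Nubian 1 it was 0.162, and without Nubian 2 it was 0.819. With 4 or more markers the ratios were 0.895, 0.930, 1.58 and 0.901, so that the breeds overlapped (log2 difference 0.39, exact permutation p = 0.667). When nuclei that also passed another gate were removed from the lymphatic side alone, they were 1.11, 0.720, 1.10 and 0.985 (log2 difference 0.22, exact permutation p = 1). After each nucleus was thinned to 1000 UMIs they were 1.82, 2.03, 4.45 and 1.52, with Nubian 2 the lowest (log2 difference 0.44, exact permutation p = 1). The breed order was kept among nuclei of at least 1000 UMIs, with 1.28, 1.19, 2.29 and 1.30, and under the study's quality filter, with 1.42, 1.26, 2.26 and 1.45 (exact permutation p = 0.333 for both).

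**Figure D2:**
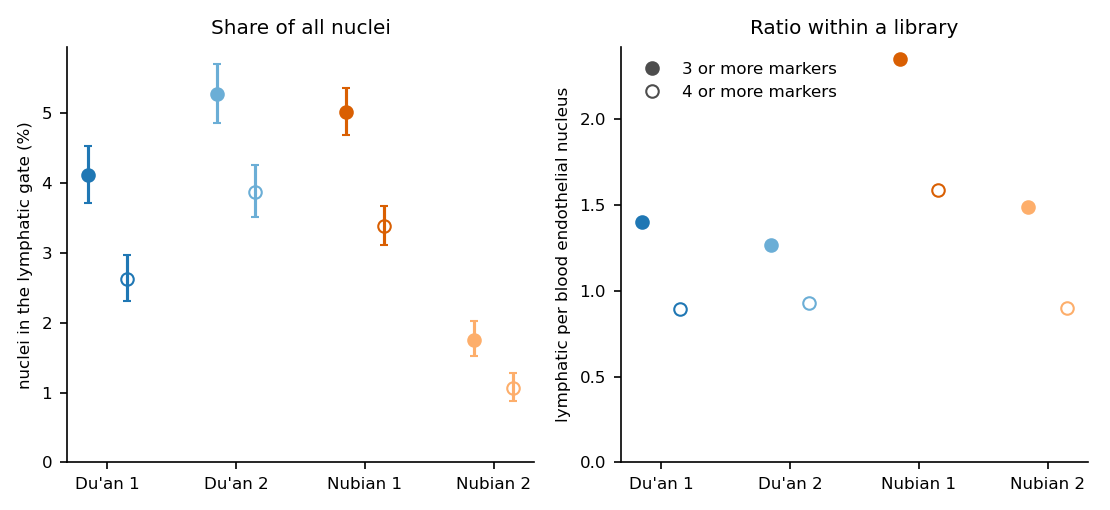
Lymphatic-gate nuclei by goat, with 3 or more markers (filled) and 4 or more (open). Left, percent of all nuclei with 95% exact binomial intervals, lowest in Nubian 2 at 1.76%; right, lymphatic-gate per blood endothelial-gate nucleus, highest in Nubian 1 at 2.35.

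The next question was which genes set lymphatic-gate apart from blood endothelial-gate nuclei. On the log2 scale across 16856 genes, their sums correlated within a goat at a mean r of 0.923 ± 0.0251 (SD over the 4 goats). Lymphatic-gate sums were no less like those of granulosa, stromal and smooth muscle-gate nuclei, with a mean r of 0.930, 0.925 and 0.924. With T or natural killer and macrophage-gate nuclei it was 0.810 and 0.687. UMIs were summed per goat in the 2006 lymphatic-gate nuclei and in the 1223 blood endothelial-gate nuclei that did not pass the lymphatic gate (275, 454, 363 and 131), so the 229 nuclei of both gates counted as lymphatic. The 8 sums were compared by edgeR's quasi-likelihood test, blocked by goat, with Benjamini-Hochberg adjusted p-values. Of 10835 genes outside both gates, 662 (6.11%) were higher and 973 (8.98%) lower in lymphatic-gate nuclei at an adjusted p under 0.05, with a median log2 fold change of -0.01 over all of them. The counts were 837 and 940 with 4 or more markers, and 356 and 589 without Du'an 1, the lowest when a goat was left out. Sums over nuclei of the same goats measure the spread between 4 animals. The 12 genes with the largest change in each direction, by a fixed rule, kept their call in all alternatives run. Calls of the single genes described below, 126 with the named genes and called list members together, were less stable: 31 were lost without Du'an 1, 13 to 16 without each of the other goats, 26 without the goat as a block, 21 with 4 or more markers, where 1 more changed sign, and 22 without lymphatic-gate nuclei of other gates, where 2 more did.

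The genes that rose most were led by KIRREL3. It stood at 297, 681, 3092 and 690.2 CPM in lymphatic-gate nuclei and at 1.42, 2.30, 14 and 1.25 CPM in blood endothelial-gate nuclei, a log2 fold change of 8.01 (SE 0.21, adjusted p = 9.5e-06 by edgeR). Nubian 1 was the highest in both classes, yet the classes were far apart in every goat. TBX1 was measured at 158, 155, 196 and 115 CPM against 0, 0, 2.34 and 0 CPM (adjusted p = 0.000128 by edgeR). The blood endothelial-gate nuclei held 5 UMIs of TBX1 in all, from 1 goat, and no fold change is given where a vessel class had fewer than 10 UMIs of a gene. SCN3A, a sodium channel subunit of excitable cells, had 85.3, 285, 272 and 86.1 CPM against 0.712, 1.15, 1.87 and 0 CPM, or 8 UMIs in all. The transmembrane collagen gene COL23A1 followed with a mean of 306 ± 86.2 CPM (SD, n = 4) against 3.8 ± 2.79, and the secreted protease gene ADAMTS12 with 407 ± 128 against 7.37 ± 3.88 CPM. SEMA3D, a secreted semaphorin, and PARD6G, a cell polarity protein, had log2 fold changes of 5.28 and 5.16. PARD6G was the most even of the group, with 241, 203, 189 and 153 CPM against 6.40, 4.98, 5.14 and 6.27. The rest of the 12 were FBLN7, FSTL4, TNFAIP8L3 and SLC38A4, with log2 fold changes of 5.54, 5.37, 5.30 and 5.2, and FAM19A5, with 79.4, 70.2, 106 and 25.3 against 0, 1.15, 0 and 0 CPM.

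Of the genes that fell most, MECOM was measured at 64.5, 197, 74.7 and 193 CPM in lymphatic-gate nuclei and at 3972, 2776, 3799.7 and 3407 CPM in blood endothelial-gate nuclei (log2 fold change -4.88, SE 0.40, adjusted p = 0.000343 by edgeR). CA4, a carbonic anhydrase of capillaries, had 0, 0.608, 0.523 and 0 CPM against 46.2, 127, 35.5 and 169 CPM. ABCB1, the efflux pump P-glycoprotein, had 38.8, 79.9, 19.5 and 8.69 CPM against 1368, 1569, 673 and 1494 CPM (log2 fold change -5.27). No goat overlapped between the classes for these 3 genes. The arterial connexin gene GJA5 had a mean of 2.24 against 146 CPM, and the tyrosine kinase gene BMX 3.08 against 233 CPM. The Wnt regulator gene DKK2 had a mean of 3.26 against 302 CPM, a log2 fold change of -6.14. MAL, PRDM16, ZNF366 and CALN1 fell with log2 fold changes of -5.57, -5.16, -5.03 and -4.85, and the chemokine genes CXCL9 and CX3CL1 with -5.29 and -4.83.

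**Figure D3:**
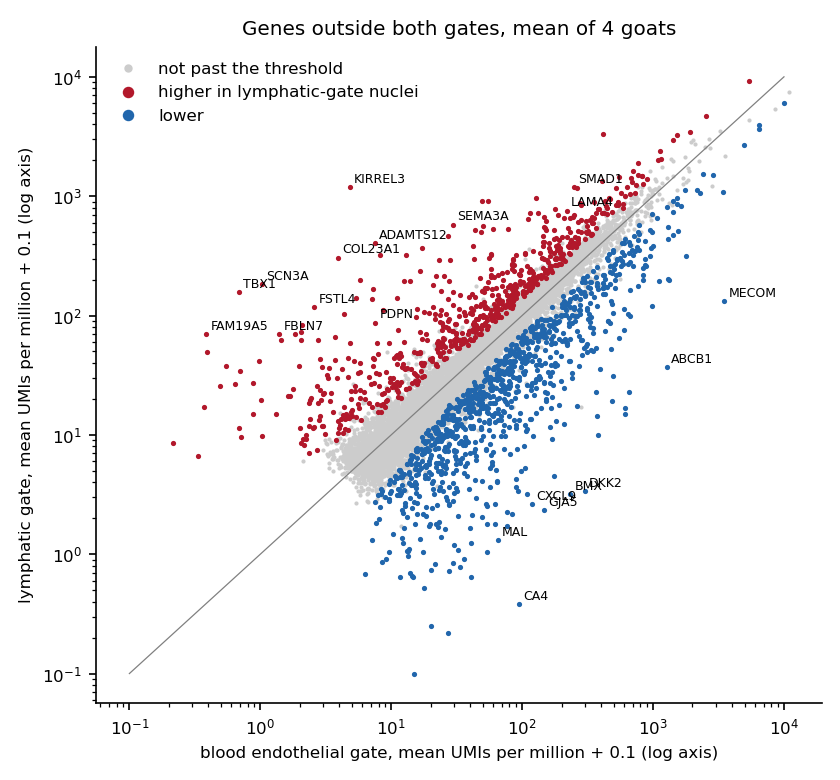
Mean level of each gene outside both gates over 4 goats in blood endothelial-gate (horizontal) and lymphatic-gate nuclei (vertical), in CPM plus 0.1 on log axes. Red points were higher (662) and blue points lower (973) in lymphatic-gate nuclei, grey points did not pass the test, and the line marks equal levels; TBX1, KIRREL3 and SCN3A lie far above the line and MECOM and ABCB1 far below.

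Transcription factors known from lymphatic development did not move together. Of 12 genes on this list, 9 were tested. Of these, 3 were higher and 5 lower in lymphatic-gate nuclei, beside 6.11% and 8.98% of all genes. The median log2 fold change was -0.93. TBX1 was one of those that rose. NFATC1, a factor of valve formation, was another, at 184, 99.7, 79 and 47.4 CPM against 30.6, 21.0, 34.1 and 18.8 CPM (log2 fold change 1.89, SE 0.25, adjusted p = 0.00249 by edgeR). NR2F2, the nuclear receptor COUP-TFII of veins and lymphatics, was measured at 152, 133, 173 and 156 CPM against 72.6, 65.1, 129 and 94.1 CPM (log2 fold change 0.81, adjusted p = 0.00916 by edgeR). SOX18, which acts upstream of PROX1 in the embryo, was lower at 13.7, 14, 22.9 and 22.9 CPM against 47.0, 27.6, 55.6 and 109 CPM (log2 fold change -1.53). GATA2, FOXC1 and ETS2 were also among those that fell, with log2 fold changes of -2.03, -2.07 and -0.86. With 4 or more markers 3 rose and 3 fell, and FOXC1 was among those that no longer passed (log2 fold change -1.38, adjusted p = 0.0661 by edgeR). FOXC2, the factor of valves, had 36 UMIs in all lymphatic-gate nuclei and was not tested.

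Surface and scavenger receptors of lymphatic endothelium were mostly higher. Of the 5 tested of 9 in the files, 4 rose and 1 fell, beside 6.11% and 8.98% of all genes. Their median log2 fold change was 1.78. PDPN, podoplanin, stood at 51.9, 79.9, 114 and 103 CPM against 3.56, 10.7, 13.1 and 2.51 CPM (log2 fold change 3.43, SE 0.30, adjusted p = 0.000424 by edgeR). LYVE1 was measured at 267, 184, 107 and 126 CPM against 37.7, 54.7, 26.2 and 90.3 CPM (log2 fold change 1.78, SE 0.35, adjusted p = 0.0134 by edgeR). In every goat the lymphatic value was the higher. The tetraspanin gene TSPAN18 had 697, 1054, 1221 and 907 CPM against 86.8, 96.1, 253 and 77.8 CPM (log2 fold change 3.05). MRC1, the macrophage mannose receptor that lymphatic endothelium also carries, had a mean of 48.5 ± 27.3 against 15.6 ± 8.21 CPM (SD, n = 4; log2 fold change 1.56). SCARF1 fell (log2 fold change -0.83) but did not pass with 4 or more markers (log2 fold change -0.10, adjusted p = 0.801 by edgeR). STAB2 had 15 UMIs in lymphatic-gate nuclei, MARCO 1 and CLEC4G 0, which allows up to 3 UMIs by counting error.

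Genes of the VEGF and angiopoietin systems were measured next. NRP2, the neuropilin that binds VEGF-C beside FLT4, was measured at 465, 383, 1106 and 539 CPM against 180.0, 119, 181 and 127 CPM (log2 fold change 1.94, SE 0.23, adjusted p = 0.00143 by edgeR). KDR, the main VEGF receptor of blood vessels, had 138, 184, 250.2 and 183 CPM against 522, 353, 276 and 334 CPM, which did not pass (log2 fold change -0.96, adjusted p = 0.0549 by edgeR). The ligand gene VEGFC fell, with a mean of 51.7 against 149 CPM (log2 fold change -1.45). Of 8 VEGF genes tested, 1 rose and 1 fell, with a median log2 fold change of -0.19, beside 6.11% and 8.98% over all genes, and 1 and 2 did so with 4 or more markers. ANGPT2, the angiopoietin that acts as an agonist in lymphatics, stood at 190.4, 323, 273 and 286 CPM against 79, 124, 38.3 and 90.3 CPM (log2 fold change 1.77, adjusted p = 0.0054 by edgeR). Granulosa-gate nuclei had a mean of 161 CPM of ANGPT2, and against all other nuclei it did not pass (log2 fold change 1.25, adjusted p = 0.0595 by edgeR). PTPRB, the phosphatase that dampens the angiopoietin receptor, was lower at 246, 291, 573 and 154 CPM against 1099, 822, 1042 and 860.3 CPM (log2 fold change -1.74). Of 5 angiopoietin genes tested, 1 rose and 1 fell, beside the same shares of all genes. The angiopoietin receptor gene TEK and its relative TIE1, counted below among the pan-endothelial genes, were lower, with log2 fold changes of -1.25 and -0.70 (adjusted p = 0.00919 and 0.0352 by edgeR). TIE1 was no longer lower with 4 or more markers, at a log2 fold change of 0.0257 (adjusted p = 0.951 by edgeR).

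Most genes of the pan-endothelial list, which included MECOM, were lower in lymphatic-gate nuclei. Of 18 pan-endothelial genes, none rose and 13 fell, beside 6.11% and 8.98% of all genes, with a median log2 fold change of -1.24. ERG was measured at 242, 266, 381 and 191 CPM against 667, 545, 527 and 638 CPM (log2 fold change -1.17, adjusted p = 0.0132 by edgeR), and PECAM1 at 351, 286, 334 and 248 CPM against 492, 355, 514 and 699.8 CPM, which did not pass (log2 fold change -0.72, adjusted p = 0.059 by edgeR). When the lymphatic side alone was limited to 4 or more markers, 2 of the 18 rose and 7 fell, and the median was -0.59. PECAM1 then had a log2 fold change of -0.0029 (adjusted p = 0.996 by edgeR), and ERG of -0.46 (adjusted p = 0.152). With 4 or more markers of each vessel type and no nuclei of other gates, a setting chosen after seeing the data, none rose and 11 fell, with a median of -0.90.

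Leukocyte traffic genes were mixed. Of 11 tested, 2 rose and 5 fell, beside 6.11% and 8.98% of all genes. With 4 or more markers 2 and 4 of 10 did. IL7, the cytokine that supports T cells and that lymphatic endothelium is known to make, stood at 81.8, 53.5, 79.4 and 47.4 CPM against 0.712, 1.53, 4.67 and 7.52 CPM (log2 fold change 4.41, SE 0.45, adjusted p = 0.000774 by edgeR). ACKR3, a scavenging chemokine receptor, had a mean of 76.1 ± 14 against 11.1 ± 5.67 CPM (SD, n = 4; log2 fold change 2.74). The alarmin gene IL33 was lower at 61.5, 29.5, 48.9 and 26.1 CPM against 349, 173, 258 and 143 CPM (log2 fold change -2.47). The selectin gene SELP, the chemokine gene CXCL12, the checkpoint ligand gene CD274 and the adhesion gene ALCAM fell, with log2 fold changes of -4.99, -3.60, -2.90 and -0.80. SELE and CCL20 had no UMI in either vessel class.

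Of 12 NOTCH and arterial genes 1 was higher and 6 lower, beside 6.11% and 8.98% of all genes. The median log2 fold change was -0.997, and with 4 or more markers 2 were higher and 8 lower. The arterial factor gene SOX17 had a mean of 0.807 against 36.0 CPM (log2 fold change -5.13), the receptor gene NOTCH4 1.54 against 39.6 CPM (log2 fold change -4.19) and the ligand gene DLL4 8.39 against 32.7 CPM (log2 fold change -1.89). HEY1, a NOTCH target, was measured at 0, 0.304, 0.174 and 0 CPM against 22.8, 16.8, 13.6 and 55.2 CPM. The ligand genes JAG1 and JAG2 fell with log2 fold changes of -2.74 and -3.93. NOTCH1 was the gene that rose, with a log2 fold change of 0.74.

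Guidance genes gave 6 higher and 4 lower of 19, beside 6.11% and 8.98% of all genes, with a median log2 fold change of -0.01. With 4 or more markers 6 were higher and 2 lower. SEMA3A, a secreted repellent that also shapes lymphatic valves, stood at 618, 389, 758 and 545 CPM against 22.8, 18.4, 44.9 and 31.4 CPM (log2 fold change 4.34, SE 0.17, adjusted p = 2.7e-05 by edgeR). NTN4, UNC5B, ROBO1 and SEMA6A rose by 1.85, 1.67, 1.20 and 0.80, of which ROBO1 no longer passed with 4 or more markers (log2 fold change 0.13, adjusted p = 0.691 by edgeR). SEMA3G, an arterial semaphorin, had 8 UMIs in lymphatic-gate and 281 in blood endothelial-gate nuclei, and the receptor gene EPHA4 had a log2 fold change of -2.04. PLXND1 and SEMA3F fell with -0.74 and -0.85, and neither passed with 4 or more markers (log2 fold changes -0.05 and -0.21, adjusted p = 0.883 and 0.668 by edgeR).

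Matrix, junction and valve genes changed in both directions. Among 15 basement membrane and elastic matrix genes 6 rose and 7 fell, beside 6.11% and 8.98% of all genes. The median log2 fold change was 0.32, and with 4 or more markers 6 rose and 5 fell. LAMA4, the laminin chain of vascular basement membranes, was measured at 857, 581, 941 and 648 CPM against 264, 151, 249 and 217 CPM (log2 fold change 1.79, SE 0.14, adjusted p = 0.000251 by edgeR). NID1 and EMILIN2 rose by 1.96 and 1.66. The fibronectin gene FN1 was lower at 222, 228, 212 and 113 CPM against 1200.3, 728, 1161 and 1334 CPM (log2 fold change -2.51), and MMRN2 had a log2 fold change of -3.78. The collagen genes COL4A1 and COL4A2 fell with -1.21 and -1.02, and neither passed with 4 or more markers (adjusted p = 0.054 and 0.199 by edgeR).

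Of 15 junction genes 2 rose and 5 fell, beside 6.11% and 8.98% of all genes. With 4 or more markers 2 rose and 4 fell. The connexin gene GJA1 rose, at 296, 210.0, 252 and 229.8 CPM against 76.1, 85.7, 116 and 56.4 CPM (log2 fold change 1.57). Granulosa-gate nuclei had a mean of 221 CPM of GJA1, and against all other nuclei it did not pass (log2 fold change 0.50, adjusted p = 0.0524 by edgeR). JAM2 fell, at 29.2, 23.4, 14.5 and 24.5 CPM against 414, 320.3, 325 and 395 CPM (log2 fold change -4.02, SE 0.16). CLDN5, the claudin of endothelial tight junctions, had 20.9, 56.8, 45.9 and 78.2 CPM against 247, 268, 253 and 623 CPM (log2 fold change -2.77). None of the goats overlapped between the vessel classes for these junction genes. The valve and collecting vessel list gave 3 higher and 3 lower of 12, beside the same shares of all genes. With 4 or more markers it gave 5 and 3. ITGA9, the integrin chain of valve leaflets, rose with 811, 649, 1444 and 571 CPM against 245, 222, 316 and 331 CPM (log2 fold change 1.57, SE 0.24). EPHB4 and CELSR1, which also act in valves, rose by 1.16 and 0.81, while the elastic fibre gene FBLN5 fell (log2 fold change -3.12).

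In the BMP and TGF-beta pathway 1 of 20 genes rose and 9 fell, beside 6.11% and 8.98% of all genes. The median log2 fold change was -0.996, and with 4 or more markers 2 rose and 10 fell. The gene that rose was SMAD1, the transducer of BMP signals, at 996, 962, 1873 and 945 CPM against 296, 175, 284 and 243 CPM (log2 fold change 2.23, SE 0.20, adjusted p = 0.000457 by edgeR). The ligand gene BMP4, the receptor gene ACVRL1 and the target genes ID1 and SMAD7 fell, with log2 fold changes of -3.19, -2.24, -2.84 and -2.23. SMAD1 thus differed in sign from ID1, which had a mean of 7.42 ± 6.07 against 52.6 ± 14.1 CPM (SD, n = 4). Coagulation genes gave 2 higher and none lower of 9, beside the same shares of all genes (4 and 0 with 4 or more markers). The 2 were F8, clotting factor VIII, at 325, 496, 304 and 258 CPM against 157, 176, 124 and 198 CPM (log2 fold change 1.07, adjusted p = 0.0107 by edgeR), and the plasminogen activator gene PLAT (log2 fold change 1.37).

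**Figure D4:**
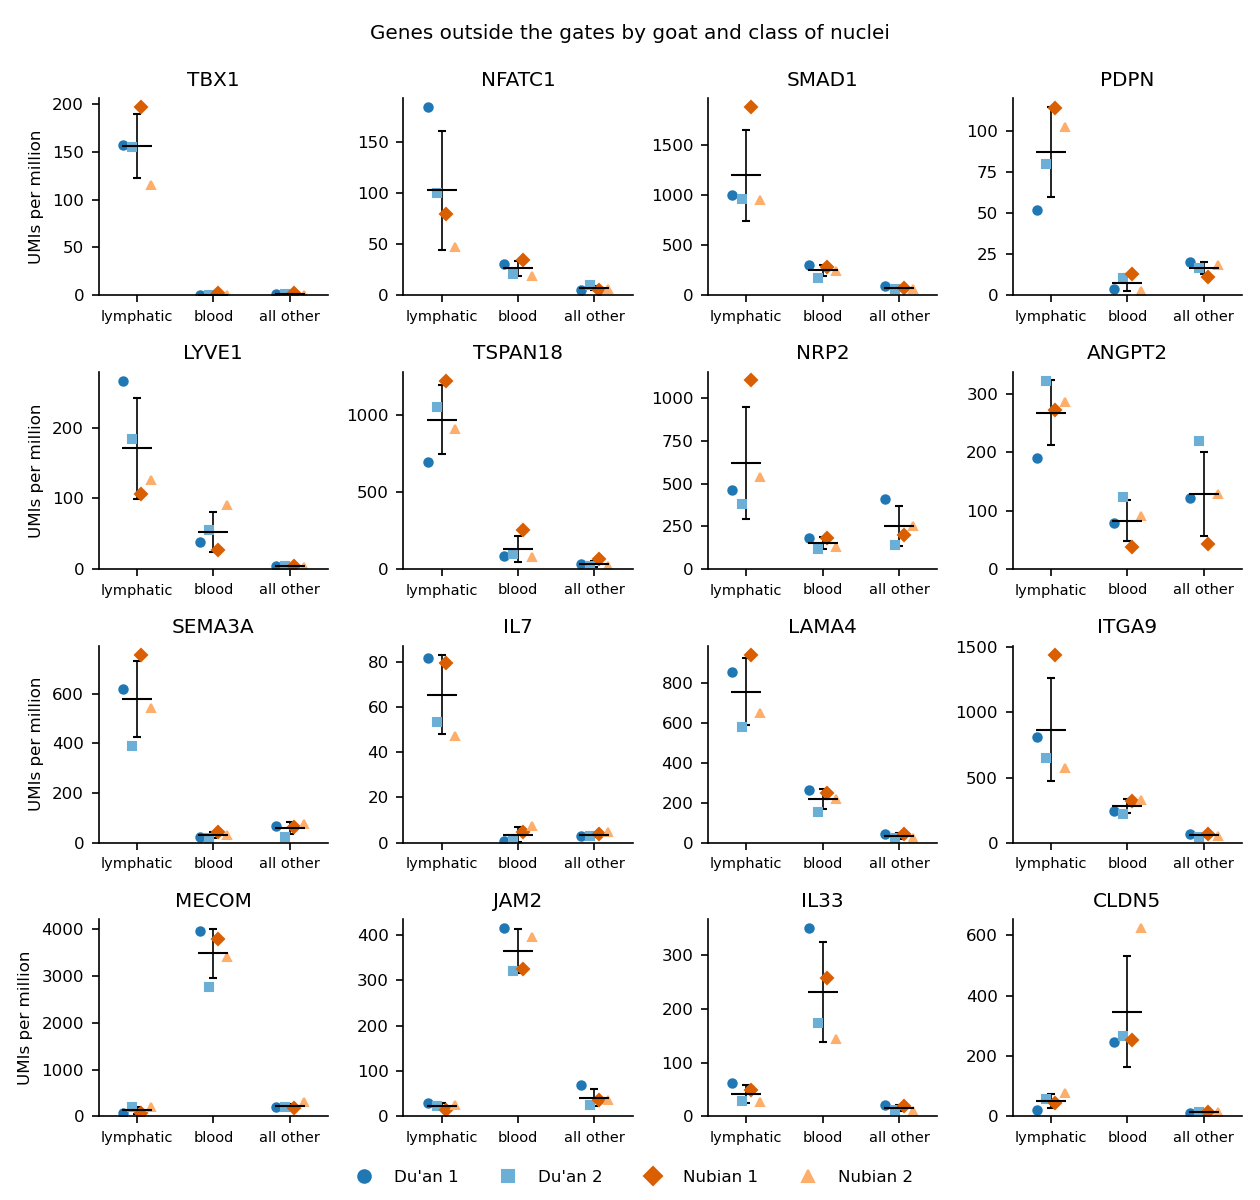
Level of 16 genes outside the gates in CPM in lymphatic-gate, blood endothelial-gate and all other nuclei, 1 point per goat with mean and SD (n = 4). TBX1, PDPN, IL7 and SEMA3A separate the vessel classes in every goat, with SEMA3A at 389 to 758 CPM in lymphatic-gate nuclei and at most 44.9 CPM in blood endothelial-gate nuclei, and MECOM, JAM2, IL33 and CLDN5 do so in the opposite direction.

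Against all 46326 other nuclei, the question was what marks lymphatic-gate nuclei in the ovary as a whole. Of 15691 genes tested in the same way, 1226 (7.81%) were higher and 646 (4.12%) lower, with a median log2 fold change of -0.11. With 4 or more markers 1871 were higher and 1670 lower, and without lymphatic-gate nuclei of other gates 1909 were higher and 2107 lower, so that lower genes outnumbered higher ones in the latter setting. The counts fell to 740 and 222 without Nubian 1, and to 904 and 92 without the goat as a block. The genes that rose most largely overlapped in name with those above: SCN3A, KIRREL3, TBX1, SEMA3D, COL23A1 and ADAMTS12 had log2 fold changes of 7.43, 7.17, 6.94, 5.57, 5.55 and 5.55. Both comparisons used the same lymphatic-gate sums, so this is not independent. The mechanosensitive channel gene PIEZO2 stood at 822, 784, 1260.4 and 782 CPM against 26.2, 11, 29.7 and 14.1 CPM (log2 fold change 5.59, SE 0.22, adjusted p = 3.6e-05 by edgeR). It was also far above blood endothelial-gate nuclei, which had 57.6, 40.2, 66.8 and 55.2 CPM. LYVE1 was measured at 267, 184, 107 and 126 CPM against 3.52, 4.17, 3.67 and 2.87 CPM (log2 fold change 5.51), a larger gap than against blood endothelium. The receptor kinase gene EPHB1, the protease gene TLL1 and TSPAN18 had log2 fold changes of 5.36, 5.12 and 5.12.

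Most pan-endothelial genes were higher than in the rest of the ovary. Of 18 pan-endothelial genes 12 rose and none fell, beside 7.81% and 4.12% of all genes, with a median log2 fold change of 2.68. PECAM1 had 351, 286, 334 and 248 CPM against 32.9, 42.4, 31.0 and 41.4 CPM. MECOM, on this list, had a mean of 132 against 221 CPM. It did not pass (log2 fold change -0.87, adjusted p = 0.0626 by edgeR). Lymphatic transcription factors gave 9 higher and 1 lower of 11, with a median of 2.39, and SOX18 was among those that rose (log2 fold change 2.81). Beside the same shares, junction genes gave 8 higher and 1 lower of 16 and valve genes 7 and 0 of 13. Guidance genes gave 9 and 1 of 19, matrix genes 9 and 1 of 16, and leukocyte traffic genes 6 and 0 of 12. In the order of this paragraph, the 7 lists gave 13 and 1, 9 and 0, 10 and 1, 7 and 0, 10 and 4, 10 and 1, and 7 and 1 with 4 or more markers. SMAD1 rose by 4.04, LAMA4 by 4.55 and ITGA9 by 3.90, and TFPI, the inhibitor of tissue factor, rose by 4.85. Hence several genes that were lower than in blood endothelium, such as SOX18, CLDN5 (log2 fold change 1.78) and IL33 (1.37), were higher than in the ovary at large.

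Among the 12 genes that fell most against other nuclei, S100A9, a calcium-binding protein gene of granulocytes and monocytes, was measured at 0.597, 4.26, 0.523 and 5.53 CPM against 23.9, 75.6, 11.9 and 600.1 CPM (log2 fold change -5.26, SE 0.43), and S100A8, FCER1G, TYROBP, AIF1 and C1QC had log2 fold changes of -4.68, -3.49, -3.37, -3.01 and -2.76. Those of PLAC8, LGALS1, IFI30, S100A4 and LCP1 were -3.39, -3.39, -3.31, -3.31 and -3.18. The ferritin gene FTH1 had 89.5, 1127, 117 and 339 CPM against 1052, 2723, 815 and 14347 CPM (log2 fold change -3.21, adjusted p = 0.0189 by edgeR). Nubian 2 was the highest of the other nuclei for S100A9 and FTH1, and its macrophage gate held 295 nuclei with a median of 17525 UMIs, against 62, 304 and 145 nuclei with medians of 7322.5, 9224 and 6652 in Du'an 1, Du'an 2 and Nubian 1. Of these 12 genes 8 lost the call when the goat was not used as a block, namely C1QC, S100A8, S100A4, FCER1G, IFI30, TYROBP, AIF1 and FTH1 (adjusted p = 0.383, 0.0941, 0.106, 0.0725, 0.088, 0.114, 0.128 and 0.141 by edgeR), with log2 fold changes of -1.92 to -5.57. C1QC also did not pass without Du'an 1, Nubian 1 or Nubian 2, FTH1 and TYROBP without Du'an 1 or Nubian 1, and IFI30 without Du'an 1 (adjusted p = 0.0552 to 0.125 by edgeR), although their log2 fold changes stayed between -2.21 and -3.42. S100A9 changed in size, with a log2 fold change of -1.28 under the study's quality filter (adjusted p = 0.0841 by edgeR).

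The last question was whether breed changed these nuclei. In lymphatic-gate nuclei, edgeR's quasi-likelihood test called none of 11401 genes in either direction (0%), with 375 at an unadjusted p under 0.05, and DESeq2 called 4 higher and 1 lower in Nubian goats. The goats of the breeds did not overlap for 3312 genes (29.1%). Values are therefore given only for the 3 genes with the smallest p in each direction. FREM1, an extracellular matrix gene, stood at 37.0 and 45.3 CPM in Du'an and 189 and 197 CPM in Nubian goats (log2 fold change 2.23, SE 0.22, adjusted p = 0.9997 by edgeR). ST8SIA1, a ganglioside synthase gene, had 6.57 and 7.90 against 55.0 and 33.2 CPM, and PLAU, urokinase, had 0 and 0.608 against 28.1 and 14.2 CPM. In the other direction ADGRG6, an adhesion receptor gene, had 138 and 122 CPM in Du'an and 20.9 and 33.2 CPM in Nubian goats (log2 fold change -2.30). WNT5B had 22.1 and 22.8 against 3.84 and 3.95 CPM, and ASTN2 had 219 and 229 against 94.4 and 84.5 CPM. These 6 genes were the ends of a ranking, and their call depended on the method: DESeq2 called FREM1, ST8SIA1, PLAU and ADGRG6 (adjusted p = 1.96e-05, 0.013, 0.013 and 0.00063), and edgeR called all 6 when genes of low counts were not filtered out.

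**Figure D5:**
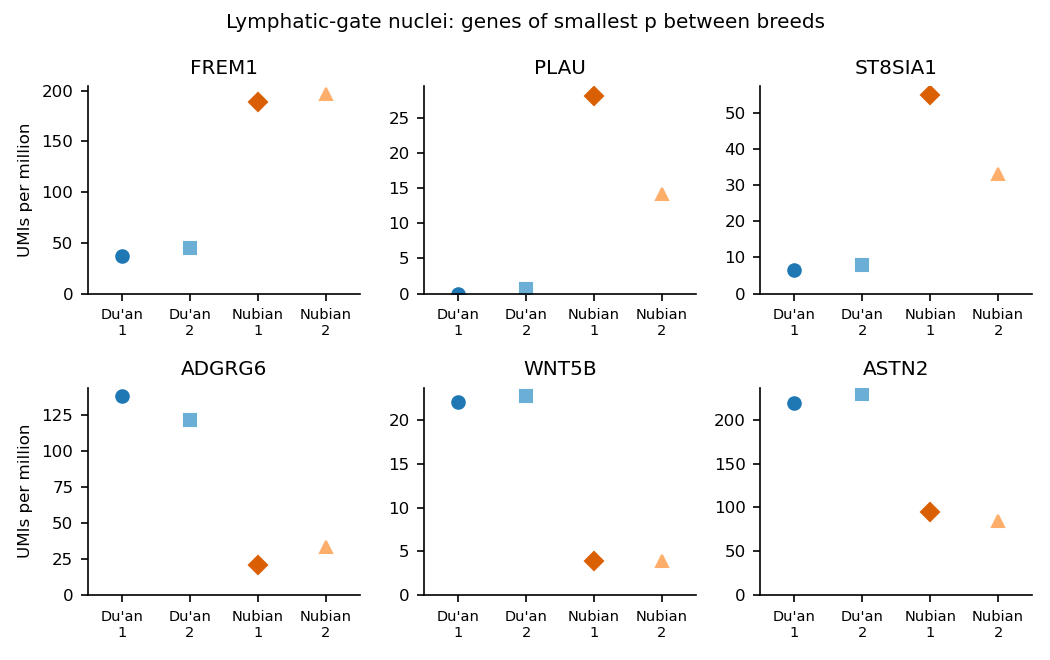
Level in lymphatic-gate nuclei, in CPM, of the 6 genes with the smallest p between breeds, 1 point per goat. The goats of a breed lie together for FREM1 (37.0 and 45.3 against 189 and 197 CPM), but none of the genes passed the adjusted threshold by edgeR with its filter on low counts; DESeq2 called 4 of the 6.

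Whether the breed difference itself was unlike in the vessel classes was tested as an interaction over both gates. edgeR called none of 11865 genes (0%), with 496 at an unadjusted p under 0.05, and DESeq2 called 1 higher and none lower. The difference between lymphatic and blood endothelial-gate nuclei did not overlap between breeds for 3963 genes (33.4%). Among the genes with the smallest p, ADAMTS6, a secreted protease gene, had 87.1, 112, 598 and 348 CPM in lymphatic-gate nuclei and 189, 267, 365 and 282 CPM in blood endothelial-gate nuclei (interaction on the log2 scale 1.77, adjusted p = 0.954 by edgeR). CPNE4 had 66.2, 59.3, 212 and 94.0 CPM against 166, 126, 154 and 74.0 CPM, and CDH20 had 0, 0.304, 0.349 and 44.2 CPM against 11.4, 13.4, 0.935 and 15.0 CPM. COLEC12, ADAMTSL3 and MDGA2 had interactions of -2.61, -2.66 and -2.28 (adjusted p = 0.857 by edgeR). DESeq2 called none of these 6 genes, and edgeR called all 6 without the filter on low counts (adjusted p = 0.00235 to 0.0311).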

How the data were processed

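The authors deposited, for each of the 4 libraries, raw UMI counts of each feature in each nucleus, without normalization and already limited to called nuclei. The submitters' processing notes name Cell Ranger 5.0.0 and Seurat, while the matrix headers name another Cell Ranger version. The authors' deposited marker tables hold fold changes and p-values of their own comparisons and were not used. The members, gates and gene lists were chosen with earlier results of these data known. Feature names were read after removing the prefix "gene-". Of the 28944 features, STAB1, CCL2, ACKR2, VCAM1, LAMB2, FABP4, HSPA1A, MUC16, CD163, MS4A7 and ABCA8 were not found by name among the list genes.

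UMI counts were summed per goat and gate and tested with edgeR 4.0.16 (quasi-likelihood test, TMM, filterByExpr, goat as a block where both classes come from the same goats, Benjamini-Hochberg adjustment, R 4.3.3), with DESeq2 1.42.0 as an alternative. CPM were computed from the library total of each sum. The deposited matrices gave 1675475 to 5731450 UMIs per lymphatic-gate sum. Tests over goats used exact permutation (scipy 1.17.1). Nothing in the labels names other replication than 1 library per goat, so p-values measure the spread between these goats. No doublet caller was run here, and nuclei that passed 2 gates were counted instead. The study's methods include a doublet step. The deposited matrices hold 48332 nuclei, the number the study gives before its quality control, and so precede that step. The study's quality filter, as applied here, was passed by 87.9% of lymphatic-gate nuclei (81.9% in Nubian 1) and 92.8% of all nuclei.

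Named genes were the 12 with the largest change in each direction among called genes with a symbol, outside the gates, with the same direction in 4 goats and a mean of at least 50 CPM in the higher class; for breed, the 3 with the smallest p in each direction where none was called; and, from each list, called members with large changes, abundant ones and those whose absence is described. Alternatives were another tool, no TMM, no low-count filter, leaving out each goat, 4 or more markers, nuclei of at least 1000 UMIs, no nuclei of other gates, the study's quality filter (at most 20% mitochondrial UMIs, UMI and gene counts within 2 SD), other nuclei with no marker, and the replicate block. On simulated counts the test recovered 71% and 99% of genes changed by 1 and 2 log2 units against blood endothelial nuclei (10895 genes), 47% and 95% against other nuclei (15958), 22% and 94% between breeds (11420) and 6% and 52% for the interaction (11823). The simulation gave every gene the same fixed spread and changed only genes with larger counts. These shares therefore do not give the power of the tests in these goats, where the spread differs between genes.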

Additional observations from a re-analysis of the deposited data

How the results depend on the processing

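All results below rest on 4 goats. Against blood endothelial-gate nuclei, the count of higher genes was 1003 without a filter on low counts and 356 to 544 when a goat was left out, and the count of lower genes was 589 to 996 when a goat was left out. Against all other nuclei, higher and lower genes numbered 1871 and 1670 with 4 or more markers, 1909 and 2107 without lymphatic-gate nuclei of other gates, 1902 and 1629 with the study's quality filter, and 2159 and 2755 with 4 or more markers and no nuclei of other gates, a setting added after the data were seen. DESeq2 called 984 lower there, and leaving out a goat gave 740 to 1293 higher and 222 to 849 lower. Without the goat as a replicate block, 396 genes were higher than in blood endothelial-gate nuclei, and 92 lower than in other nuclei. Between breeds, the replicate number of the labels as a block called 0 genes in either direction, as without it. The labels do not say whether same-numbered goats share anything beyond the number. The deviations of the same-numbered goats from their breed means had a correlation of 0.0214 across 11407 genes. A single value over all genes cannot show a factor that acted on only some of them, and a shared batch was not tested. Without a filter on low counts 124 genes were higher and 126 lower in Nubian goats and the interaction called 13 and 10, while DESeq2 called 4 and 1 between breeds and 1 in the interaction. The breed difference in the share of lymphatic-gate nuclei turned from -1.30 to 0.325 percentage points without Nubian 2, and was -2.93 to 0.325 over the goats left out; the log2 difference of the ratio to blood endothelial-gate nuclei was 0.162 to 0.819. TIE1 turned from lower to a log2 fold change of 0.0257 with 4 or more markers and 0.048 without lymphatic-gate nuclei of other gates, and PLXND1 to 0.11 in the latter. The causes were not tested.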

Other observations

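Several gene groups outside the vessel pathways were also measured in the lymphatic-gate nuclei. Against blood endothelial-gate nuclei, none of 16 hormone receptor genes tested rose and 5 fell by edgeR's quasi-likelihood test, namely LEPR, THRB, RAMP2, CALCRL and PGR, with log2 fold changes of -2.79, -2.09, -1.13, -0.94 and -0.91. Over all genes tested there 6.11% rose and 8.98% fell, and with 4 or more markers 1 of the 16 rose and 3 fell. RAMP2 and CALCRL together form the adrenomedullin receptor, and neither passed with 4 or more markers (adjusted p = 0.156 and 0.502 by edgeR). Against all other nuclei 4 of 17 rose, NR3C2 (the mineralocorticoid receptor), RAMP2, CALCRL and NR3C1, by 3.18, 2.5, 2.49 and 0.58, beside 7.81% of all genes, and 5 fell, beside 4.12%, among them ESR1 and ESR2 with log2 fold changes of -0.80 and -1.10. Lipid genes gave 1 higher and 3 lower of 9 against blood endothelial-gate nuclei (1 and 2 with 4 or more markers, beside the same 6.11% and 8.98%), with MFSD2A and SCARB1 at log2 fold changes of -3.61 and -1.92. Beside the same shares of all genes, none of 9 cycling genes passed in either direction. Of 10 immediate early and heat shock genes none rose and 4 fell (1 and 3 with 4 or more markers), namely JUNB, IER2, ATF3 and FOS.

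TSHZ2, a gene of the stromal gate, was higher in nuclei with 4 or more lymphatic markers than in those with fewer. Its mean level over the 4 goats was 657, 570, 581 and 688 CPM with 0, 1, 2 and 3 markers. With 4, 5 and 6 markers it was 2262, 3000.4 and 3569 CPM. After thinning to 1000 UMIs, TSHZ2 was seen in 85.1% of nuclei with 4 or more markers, 64.4% of blood endothelial-gate and 65.6% of stromal-gate nuclei.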
